A study of Mus musculus with 6 samples.

Results

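The genes described here encode the mouse histone lysine methyltransferases and demethylases. Members were the protein-coding rows of the deposited gene table whose symbol begins with Kmt, Kdm, Setd, Nsd, Ehmt or Suv39h followed by a digit, plus Ezh1 and Ezh2. This gave 43 of 20107 genes, 25 methyltransferase or SET domain genes and 18 Kdm genes. RNA came from whole livers of wild type male C57BL/6N (Envigo) littermates at 16 weeks of age. The HFHC group (replicates 1, 2 and 3) had eaten a fructose food rich in fat and calories and drunk a high-fructose drink for 8 weeks from the age of 8 weeks. The Chow group (replicates 7, 8 and 9) had eaten chow over the same weeks, and feeding was ad libitum in both. The comparison of HFHC with Chow asks how this regimen alters hepatic gene expression. Library totals were 30096409 to 30871297 counts in HFHC and 26767416 to 27339613 counts in Chow. Levels are given as CPM, which are counts relative to the TMM-scaled library size. In whole liver, fewer cells of a type and less RNA per cell cannot be told apart.

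Histone lysine methylation is written by enzymes that move a methyl group from S-adenosylmethionine to a lysine of a histone tail, nearly all of them through a SET domain. It is erased by the flavin-dependent KDM1 enzymes or by JmjC enzymes that use iron, oxygen and 2-oxoglutarate. Methylation of lysine 4 of histone H3 (H3K4) marks promoters and enhancers, that of H3K36 the bodies of transcribed genes, and that of H3K9, H3K27 and H4K20 mostly silent chromatin. In liver several of these enzymes are known as coregulators of nuclear receptors.

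In HFHC livers 4 members fell and none rose. They were Kmt2c, which writes monomethyl H3K4 at enhancers, Nsd1 and Setd2, which write H3K36 methylation, and Kdm7a, a JmjC demethylase. Their levels were 30.4%, 25.1%, 27% and 31.6% lower, in this order. Of the 42 members that passed the count filter, 9.52% were called lower, against 3.3% of the 14896 genes tested. No member was called higher, against 3.38% of all genes (edgeR quasi-likelihood test, Benjamini-Hochberg adjusted p under 0.05 over all tested genes). At an unadjusted p under 0.05, 14 members were lower, where 11.5% of all genes were, and 1 was higher, where 10.8% were.

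A negative log2 fold change of HFHC over Chow was found for 33 of the 42 members (78.6%) and for 50.5% of all tested genes. The median log2 fold change was -0.18 over the members and -0.003 over all tested genes. Without HFHC replicate 3 the members' median was -0.088. Without HFHC replicate 1, or without Chow replicate 7, the members called lower were 2, Kmt2c and Nsd1. Over all genes 214 and 154 were called lower in these fits, in this order, against 491 with all 6 libraries.

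**Figure D1:**
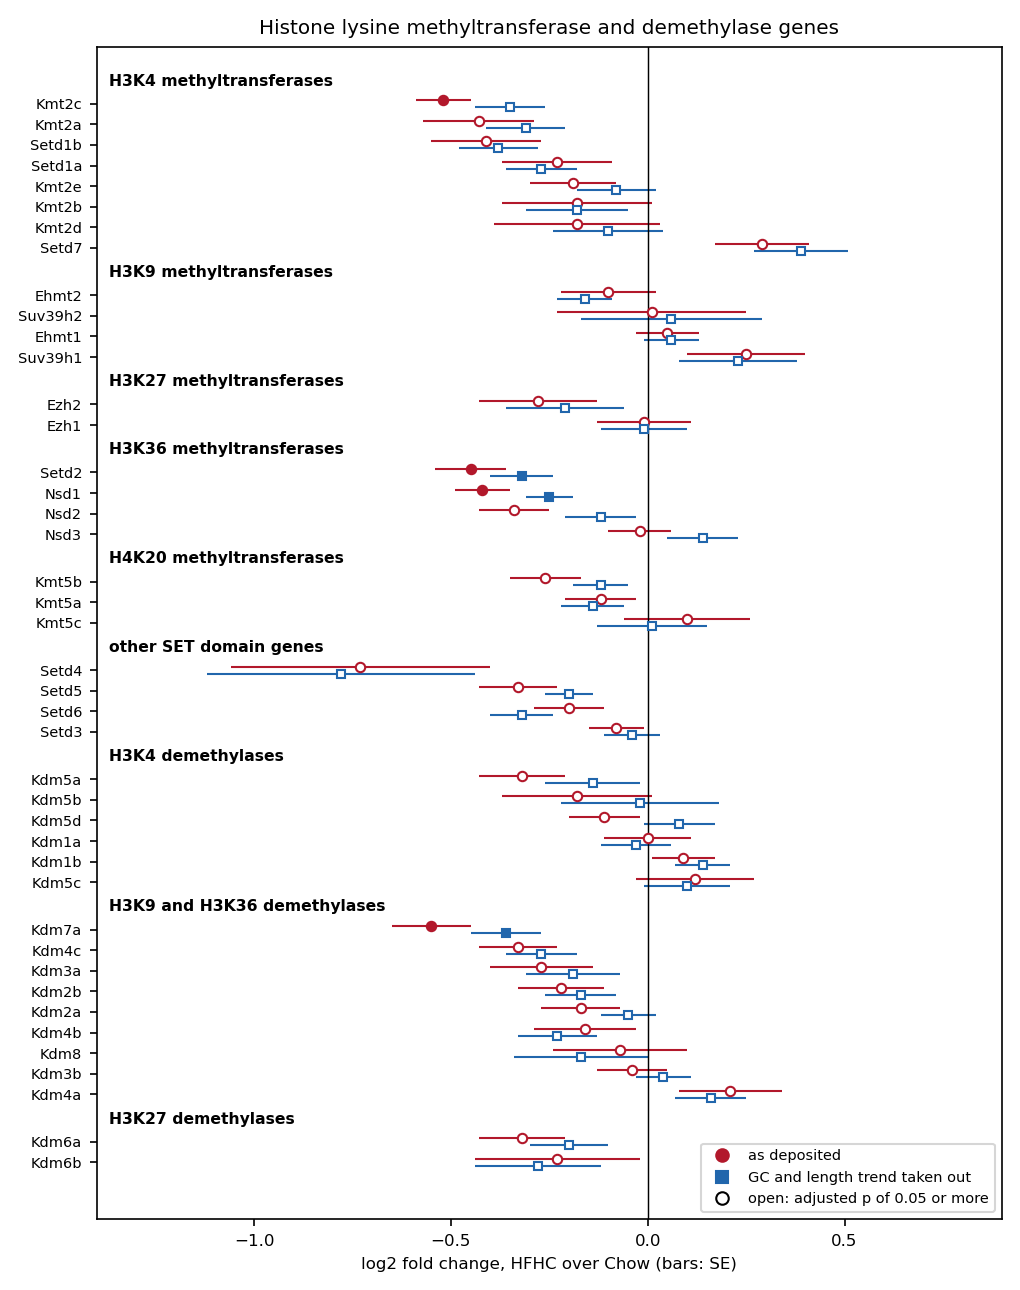
Log2 fold change of HFHC over Chow for the 42 tested members, grouped by the residue or role, with SE bars (n = 3 per diet). Circles are the counts as deposited and squares the fit after removal of the library trends on GC content and length, filled where the adjusted p is under 0.05; Kmt2c, Nsd1, Setd2 and Kdm7a are filled circles and all of these but Kmt2c also filled squares.

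The members are long transcripts, and the levels of long and of GC-rich transcripts differed between libraries. The median exonic length, over all annotated exons of a gene, was 8304 bases for the 42 tested members and 3941.5 bases for all tested genes, and 28 members lay above the upper quartile of 6343.5 bases. GC content had a median of 49.7% in members and 49.2% in all tested genes. Over 14866 tested genes with both measures, the slope of the log2 level per doubling of exonic length was -0.0219, 0.00372 and -0.0626 in HFHC replicates 1, 2 and 3, and 0.0221, 0.0459 and 0.0126 in Chow replicates 7, 8 and 9. These slopes did not overlap between the diets (difference -0.0538, exact two-sided permutation test, p = 0.1, the smallest that 3 against 3 allows). When GC content was fitted jointly with length they did overlap (difference -0.0455, exact permutation p = 0.2). The slope per 10 points of GC content was 0.104, 0.0876 and -0.0282 in HFHC libraries and -0.0786, 0.00473 and -0.0898 in Chow libraries, with an overlap (difference 0.109, exact permutation p = 0.2).

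In the longest quartile of all tested genes the median log2 fold change was -0.09 and 6.67% were called lower. In the shortest quartile the median was 0.06 and 2.1% were called lower. The 28 members in the longest quartile had a median of -0.23, and the 12 in the quartile below it -0.04. The other quartiles held 1 member each. All 4 called members were among the 28 in the longest quartile. By GC content, 6.13% of all tested genes were called lower in the lowest quartile, 3.63% in the next and 1.56% in the highest. The lowest GC quartile and the next held 10 members each, and 2 of the called members each.

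After removal of each library's smooth trend on GC content and length, 3 members were called lower, Nsd1, Setd2 and Kdm7a, against 2.88% of all tested genes. None was called higher, against 3.11% of all. Kmt2c then missed the threshold (adjusted p = 0.0521, and 2.15e-05 to 0.0521 over 15 alternative analyses). The members' median was -0.14 and that of all genes -0.01, and 31 of 42 members had a negative value, against 52.2% of all genes. The 28 members of the longest quartile had a median of -0.15. The trend was estimated from the same 6 libraries, so a diet difference that itself follows length or GC content is removed with it. When a library was also left out, which was tried after the data had been seen, Kmt2c was called in 1 of 6 fits and Nsd1, Setd2 and Kdm7a in 0 of 6. Their adjusted p values then ran over 0.0305 to 0.148, 0.0612 to 0.15, 0.0546 to 0.157 and 0.0626 to 0.166, in this order.

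**Figure D2:**
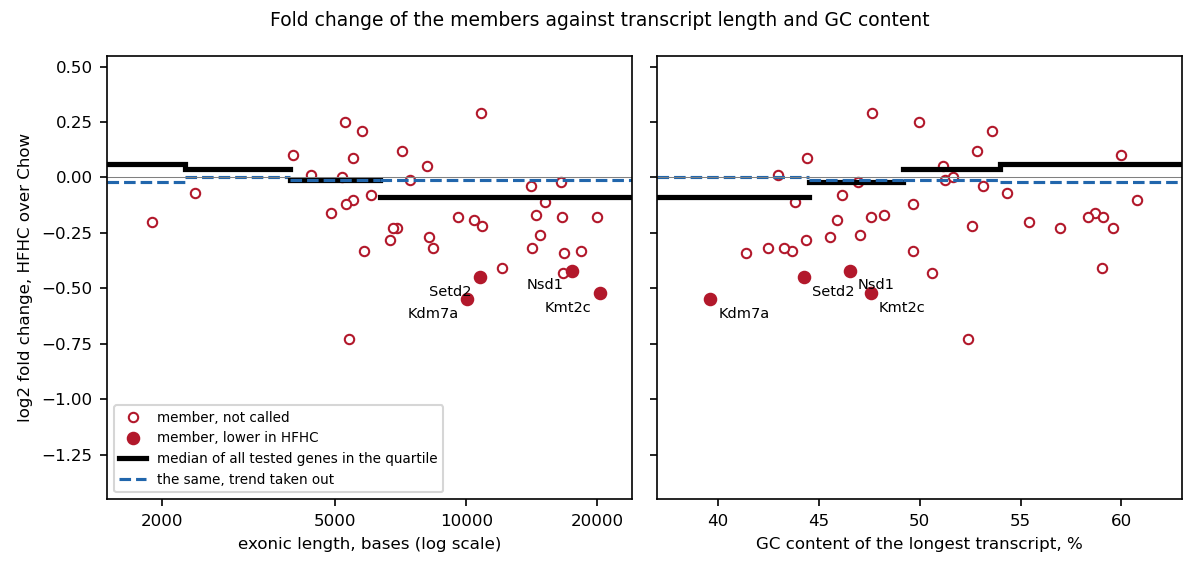
Log2 fold change of HFHC over Chow for each tested member (circles, filled where called lower) against exonic length in bases on a log axis (left) and GC content in percent (right). Thick lines give the median of all tested genes in each quartile, 0.06 in the shortest and -0.09 in the longest, and dashed lines the same after removal of the trend; the 4 called members lie under these lines in both panels.

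The 4 called members lie on 4 chromosomes (mm10). Kmt2c is at chr5:25271798-25498783 on the minus strand and has 20291 exonic bases, the most of the 43 members. Nsd1 is at chr13:55209782-55318325 on the plus strand with 17483 exonic bases. Setd2 is at chr9:110532597-110618633 on the plus strand with 10754, and Kdm7a at chr6:39136623-39206789 on the minus strand with 10057. GC content of the longest transcript was 47.6% for Kmt2c, 46.5% for Nsd1, 44.3% for Setd2 and 39.6% for Kdm7a, the lowest of the 43.

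Promoter windows of 300 bases around the start site are shown for Kmt2c, Setd2 and Kdm7a because these members were called lower. The window of Nsd1, the other called member, was not analysed here. A link between the windows and the fold changes was not tested. The windows shown are in lower case, with each GGGCGG or its complement CCGCCC, the core of the GC box, in capitals (RefSeq, GRCm38.p6).
Kmt2c, chr5:25498734-25499033, minus strand: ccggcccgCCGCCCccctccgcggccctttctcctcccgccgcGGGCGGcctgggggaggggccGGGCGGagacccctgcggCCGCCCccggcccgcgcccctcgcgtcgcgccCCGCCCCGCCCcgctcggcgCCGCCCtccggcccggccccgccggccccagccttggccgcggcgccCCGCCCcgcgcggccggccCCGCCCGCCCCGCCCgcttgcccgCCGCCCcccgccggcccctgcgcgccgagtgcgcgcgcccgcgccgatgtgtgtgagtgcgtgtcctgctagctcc
Setd2, chr9:110532347-110532646, plus strand: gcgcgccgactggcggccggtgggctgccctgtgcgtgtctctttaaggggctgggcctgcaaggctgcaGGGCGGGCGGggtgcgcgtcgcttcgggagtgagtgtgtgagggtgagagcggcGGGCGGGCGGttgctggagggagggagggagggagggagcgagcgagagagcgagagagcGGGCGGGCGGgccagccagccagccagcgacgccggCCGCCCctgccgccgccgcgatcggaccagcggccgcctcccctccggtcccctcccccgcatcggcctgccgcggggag
Kdm7a, chr6:39206724-39207023, minus strand: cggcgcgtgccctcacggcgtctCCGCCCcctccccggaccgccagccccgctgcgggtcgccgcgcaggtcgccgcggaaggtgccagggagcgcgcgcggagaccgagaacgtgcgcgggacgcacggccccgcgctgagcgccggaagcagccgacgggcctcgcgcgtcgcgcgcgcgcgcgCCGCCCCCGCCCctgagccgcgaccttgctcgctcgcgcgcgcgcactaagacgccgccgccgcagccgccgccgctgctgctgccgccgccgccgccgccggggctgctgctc
These windows had GC contents of 88% for Kmt2c, 77.3% for Setd2 and 82.7% for Kdm7a, and held 56, 38 and 65 CpG dinucleotides in the same order. Matches to GGGCGG on both strands, overlapping ones included, numbered 12, 7 and 3. Of 44 windows found for 32 members, 68.2% held this motif, against 35.7% of all 32851 windows. The median number of CpG dinucleotides was 28 in windows of members and 7 in all windows. The letters CCGGAAG occurred 1 time in the window of Kdm7a and were absent from those of Kmt2c and Setd2. They were in 11.4% of windows of members and 8.86% of all windows. None of the 3 windows held the TATA box letters TATAAA on either strand, and none held the CCAAT box or the E-box letters CACGTG. Of windows of members 2.27% held TATAAA, against 13.6% of all windows. The shares were 38.6% and 37.4% for CCAAT, and 9.09% and 7.15% for the E-box letters.

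Among the 8 H3K4 methyltransferase genes 1 fell and none rose, where 3.3% of all tested genes fell. The median log2 fold change was -0.21, and -0.22 after removal of the trend, when none was called. Kmt2c encodes MLL3, the catalytic subunit of an enhancer COMPASS complex. It stood at 37.8, 34.6 and 38.2 CPM in HFHC livers, against 52.4, 53.2 and 53.4 CPM in Chow livers. Every HFHC library lay well below every Chow library, and the spread within each diet was small. The log2 fold change was -0.52 ± 0.07 (SE, n = 3 per diet, edgeR adjusted p = 0.00452). Kmt2c was called in all 6 leave-one-out fits (adjusted p 0.00937 to 0.0247), and its log2 fold change was -0.35 ± 0.09 after removal of the trend.

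Kmt2d, the closest relative of Kmt2c and the other enhancer monomethyltransferase, varied more between animals. Its level was 74.6, 67.1 and 40.3 CPM in HFHC livers, against 62.4, 83.4 and 59.8 CPM in Chow livers. HFHC replicate 3 was low and Chow replicate 8 high, and the diets overlapped (log2 fold change -0.18 ± 0.21, edgeR adjusted p = 0.681). Values of Kmt2d were not whole in 4 libraries, so its level is uncertain. Kmt2b, which with Kmt2a forms the MLL1 and MLL2 pair, had 23.1, 24.1 and 15.2 CPM in HFHC livers, against 22.9, 28.6 and 19 CPM in Chow livers. Here too HFHC replicate 3 was the lowest and Chow replicate 8 the highest.

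Kmt2a, which keeps developmental genes active, stood at 32.6, 28.1 and 21.9 CPM in HFHC livers, against 37.3, 39.9 and 33.8 CPM in Chow livers. The diets did not overlap for Kmt2a, yet it did not pass (-0.43 ± 0.14, edgeR adjusted p = 0.0979, and 0.0399 to 0.228 over 15 alternative analyses). Setd1b, a catalytic subunit of the complexes that trimethylate H3K4 at promoters, had 26.1, 24.5 and 17.8 CPM in HFHC livers, against 32.6, 30.2 and 27.8 CPM in Chow livers. These were apart as well (-0.41 ± 0.14, edgeR adjusted p = 0.117, and 0.0521 to 0.313 over the alternatives). Its relative Setd1a averaged 23.6 ± 4.46 CPM in HFHC livers and 27.7 ± 2.88 CPM in Chow livers (SD, n = 3 each), but 51.8% of its exonic bases are shared with another gene on that strand, which leaves its level uncertain.

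Setd7, which monomethylates H3K4 and many other proteins, was the 1 tested member whose HFHC libraries all lay above its Chow libraries. It stood at 8.81, 8.93 and 8.65 CPM in HFHC livers, against 6, 7.91 and 7.69 CPM in Chow livers. The difference did not pass (0.29 ± 0.12, edgeR adjusted p = 0.211). Kmt2e, whose product has a SET domain without known methyltransferase activity, averaged 42.9 ± 6.95 CPM in HFHC livers and 48.9 ± 1.65 CPM in Chow livers (SD, n = 3 each), a log2 fold change of -0.19 ± 0.11.

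**Figure D3:**
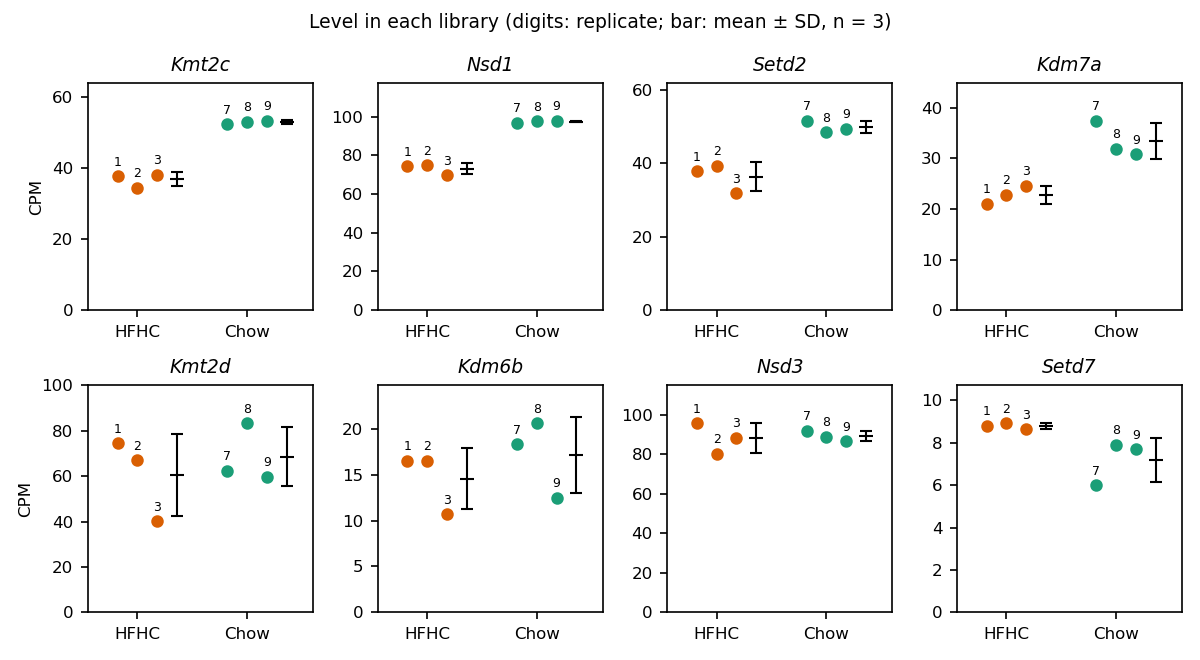
Level in CPM of 8 members in each library, HFHC left and Chow right, with replicate numbers above the points and the mean ± SD (n = 3) beside them. The diets are apart for Kmt2c, Nsd1, Setd2, Kdm7a and Setd7 and overlap for Kmt2d, Kdm6b and Nsd3.

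In the H3K36 group 2 of 4 genes fell and none rose, where 3.3% of all tested genes fell. The median log2 fold change was -0.38, and -0.18 after removal of the trend, when 1 of the 4 was positive. Nsd1, which dimethylates H3K36, stood at 74.3, 74.9 and 69.8 CPM in HFHC livers, against 96.9, 97.6 and 97.8 CPM in Chow livers. The Chow animals were nearly identical and every HFHC animal was lower. The log2 fold change was -0.42 ± 0.07 (edgeR adjusted p = 0.0107), and the call held in all 6 leave-one-out fits (0.02 to 0.0493). After removal of the trend it was -0.25 ± 0.06 (adjusted p = 0.0479).

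Setd2, the enzyme that trimethylates H3K36 behind elongating RNA polymerase II, stood at 37.8, 39.3 and 31.8 CPM in HFHC livers, against 51.5, 48.4 and 49.4 CPM in Chow livers. The diets were apart, with HFHC replicate 3 the lowest. Its log2 fold change was -0.45 ± 0.09 (edgeR adjusted p = 0.0215), and -0.32 ± 0.08 after removal of the trend (adjusted p = 0.0433). The call was lost without HFHC replicate 1 (adjusted p = 0.0581), Chow replicate 7 (0.0923) or Chow replicate 9 (0.0697), and its adjusted p was 0.002 to 0.0923 over 15 alternative analyses.

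Nsd2, a relative of Nsd1 with the same dimethylating activity, stood at 22.1, 21.9 and 21.6 CPM in HFHC livers, against 26.8, 30.7 and 25.7 CPM in Chow livers, with no overlap. It missed the threshold (-0.34 ± 0.09, edgeR adjusted p = 0.0547, and 0.0479 to 0.48 over 15 alternative analyses), and after removal of the trend its diets overlapped, with a log2 fold change of -0.12 ± 0.09. Nsd3, of the same family, had 95.9, 80.4 and 88.5 CPM in HFHC livers, against 92.1, 89.1 and 86.8 CPM in Chow livers. Its diets overlapped (-0.02 ± 0.08, edgeR adjusted p = 0.934). The difference between Nsd1 and Nsd3 in their fold changes was not tested. The exonic lengths of Nsd1, Nsd2 and Nsd3 were 17483, 16803 and 16513 bases. Summed over the 4 genes, H3K36 methyltransferase transcripts came to 230.1, 216.6 and 211.6 CPM in HFHC livers and 267.2, 265.8 and 259.7 CPM in Chow livers.

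None of the 6 methyltransferase genes for H3K9 and H3K27 passed. Of the H3K9 methyltransferases, Ehmt2 (G9a) was the most abundant per exonic length, at 8.74 RPKM in HFHC and 9.34 RPKM in Chow, where RPKM is the CPM per kilobase of exon. By library it had 53.2, 49.2 and 41.4 CPM in HFHC livers, against 50, 58.1 and 45.8 CPM in Chow livers, which overlapped (-0.10 ± 0.12, edgeR adjusted p = 0.682). Its partner Ehmt1 stood at 3.31 RPKM in HFHC and 3.2 RPKM in Chow, with a log2 fold change of 0.05 ± 0.08. Suv39h1, which trimethylates H3K9 in heterochromatin, had 7.06, 7.04 and 6.54 CPM in HFHC livers, against 6.75, 4.57 and 6.03 CPM in Chow livers (0.25 ± 0.15, edgeR adjusted p = 0.369). This was the smallest p of the group, and an antisense gene covers 14.6% of its exonic bases. Suv39h2 was the least abundant tested member per length, at 0.216 RPKM in HFHC and 0.215 RPKM in Chow. It had 1.08, 0.865 and 0.905 CPM in HFHC livers, against 0.911, 0.834 and 1.09 CPM in Chow livers (0.01 ± 0.24, edgeR adjusted p = 0.988).

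Ezh1 and Ezh2 are the alternative catalytic subunits of PRC2, which methylates H3K27, Ezh1 prevailing in resting and Ezh2 in dividing cells. Ezh1 stood at 2.36 RPKM in HFHC and 2.38 RPKM in Chow, above Ezh2 at 0.659 RPKM in HFHC and 0.802 RPKM in Chow. Ezh2 had 4.93, 3.62 and 4.66 CPM in HFHC livers, against 5.69, 5.51 and 4.86 CPM in Chow livers, which overlapped (-0.28 ± 0.15, edgeR adjusted p = 0.312). Ezh1 had a log2 fold change of -0.01 ± 0.12. Summed levels of 5 proliferation markers were 8.27 to 9.48 CPM in HFHC and 5.5 to 7.62 CPM in Chow, none of the 4 that were tested passed, and their part in the level of Ezh2 was not tested.

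Of the H4K20 enzymes, Kmt5b, which makes dimethyl and trimethyl H4K20, came closest to the threshold. Its level was 31.8, 36.1 and 28.9 CPM in HFHC livers, against 40.8, 37.5 and 38.1 CPM in Chow livers. The libraries did not overlap (-0.26 ± 0.09, edgeR adjusted p = 0.136). They overlapped after removal of the trend (-0.12 ± 0.07, adjusted p = 0.37). Kmt5a, the monomethyltransferase, had a log2 fold change of -0.12 ± 0.09, and Kmt5c, which like Kmt5b makes the higher methylation states, 0.10 ± 0.16.

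The other SET domain genes had no call and a median log2 fold change of -0.27. Setd3, which methylates a histidine of actin, had the highest level per length of the tested members, at 12.2 RPKM in HFHC and 12.9 RPKM in Chow, although its values were not whole in 5 libraries. By library it had 71.9, 72.1 and 76.3 CPM in HFHC livers, against 79.6, 74.7 and 78.9 CPM in Chow livers (-0.08 ± 0.07, edgeR adjusted p = 0.567), with an overlap. Setd5 stood at 36.7, 41 and 31.7 CPM in HFHC livers, against 45.3, 47.5 and 44.6 CPM in Chow livers, with the diets apart (-0.33 ± 0.10, edgeR adjusted p = 0.0805, and 0.0579 to 0.195 over 15 alternative analyses). It was -0.20 ± 0.06 after removal of the trend. Setd6, which methylates the NF-kappa-B subunit RelA, had 12.9, 13 and 12.4 CPM in HFHC livers, against 14.2, 15.5 and 14.4 CPM in Chow livers (-0.20 ± 0.09, edgeR adjusted p = 0.218), also apart, and -0.32 ± 0.08 after removal of the trend (adjusted p = 0.05, not under the threshold before rounding, and 0.05 to 0.446 over the alternatives).

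Setd4, a low-abundance member at 0.499 RPKM in HFHC and 0.83 RPKM in Chow, had the most negative log2 fold change of the tested members, -0.73 ± 0.33, with the widest SE. It stood at 1.94, 3.52 and 2.58 CPM in HFHC livers, against 4.4, 2.54 and 6.45 CPM in Chow livers. The diets overlapped, since Chow replicate 8 lay among the HFHC libraries (edgeR adjusted p = 0.224). Without Chow replicate 8 Setd4 passed (-1.01, adjusted p = 0.0482), and over 15 alternative analyses the adjusted p was 0.0482 to 0.589.

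Of 17 tested demethylase genes 1 fell and none rose, where 3.3% of all tested genes fell. The median log2 fold change was -0.17, and -0.14 after removal of the trend. Kdm7a removes methyl groups from H3K9 and H3K27. It stood at 21, 22.8 and 24.6 CPM in HFHC livers, against 37.4, 31.9 and 30.8 CPM in Chow livers. Every HFHC library was below every Chow library, and Chow replicate 7 was the highest. The log2 fold change was -0.55 ± 0.10 (edgeR adjusted p = 0.0147), and -0.36 ± 0.09 after removal of the trend (adjusted p = 0.0479). The call was lost without HFHC replicate 1 (adjusted p = 0.0594), HFHC replicate 2 (0.0506) or Chow replicate 7 (0.0609), and its adjusted p was 0.000445 to 0.0609 over 15 alternative analyses.

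The other demethylases of H3K9 and H3K36 did not pass. Kdm4c, which acts on both marks, had 8.43, 8.36 and 9.26 CPM in HFHC livers, against 11.2, 10.4 and 11.2 CPM in Chow livers, which were apart (-0.33 ± 0.10, edgeR adjusted p = 0.0772, and 0.0361 to 0.225 over 15 alternative analyses). Its relatives Kdm4a and Kdm4b had log2 fold changes of 0.21 ± 0.13 and -0.16 ± 0.13. Kdm3a, which is induced by hypoxia, had 18.2, 16.1 and 15.1 CPM in HFHC livers, against 23.7, 17.3 and 18.6 CPM in Chow livers, and these overlapped (-0.27 ± 0.13, edgeR adjusted p = 0.263). Kdm3b had a log2 fold change of -0.04 ± 0.09, with a noncoding gene on the opposite strand over 24.6% of its exonic bases.

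Kdm2a and Kdm2b bind CpG islands and demethylate H3K36. Kdm2a had a log2 fold change of -0.17 ± 0.10. Kdm2b was among the 3 least abundant tested members per length, at 0.603 RPKM in HFHC and 0.703 RPKM in Chow, and its values were not whole in 6 libraries. It stood at 6.68, 7.01 and 5.97 CPM in HFHC livers, against 7.29, 7.8 and 7.84 CPM in Chow livers, with the diets apart (-0.22 ± 0.11, edgeR adjusted p = 0.282). Kdm8 had a log2 fold change of -0.07 ± 0.17. Kdm4d held 3, 1 and 2 counts in HFHC and 0, 1 and 1 counts in Chow libraries and was not tested.

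No H3K4 demethylase passed. Kdm5a, which removes trimethyl H3K4, had 38, 36.7 and 42.5 CPM in HFHC livers, against 56.1, 41.8 and 48.6 CPM in Chow livers, and the lowest Chow library lay below the highest HFHC library (-0.32 ± 0.11, edgeR adjusted p = 0.127). Without Chow replicate 8 Kdm5a passed (-0.42, adjusted p = 0.0446), and over 15 alternative analyses the adjusted p was 0.0446 to 0.542. After removal of the trend its log2 fold change was -0.14 ± 0.12. Kdm5b, another eraser of trimethyl H3K4, varied within diets, with 36.7, 22.2 and 32 CPM in HFHC livers, against 34, 40.9 and 28.1 CPM in Chow livers (-0.18 ± 0.19).

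The X-linked Kdm5c was among the 3 most abundant tested members per length, at 8.6 RPKM in HFHC and 7.92 RPKM in Chow. By library it had 65.9, 69.5 and 48 CPM in HFHC livers, against 49.6, 65.5 and 53.9 CPM in Chow livers, with an overlap (0.12 ± 0.15, edgeR adjusted p = 0.699). Its Y-linked counterpart Kdm5d stood at 1.53 RPKM in HFHC and 1.64 RPKM in Chow, with a log2 fold change of -0.11 ± 0.09. Kdm1a (LSD1), a flavin-dependent demethylase of H3K4, averaged 14.3 ± 1.3 CPM in HFHC livers and 14.3 ± 1.19 CPM in Chow livers (0.00 ± 0.11). Its relative Kdm1b was at 36 ± 2.75 CPM in HFHC livers and 33.7 ± 0.249 CPM in Chow livers (SD, n = 3 each, 0.09 ± 0.08).

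Kdm6a and Kdm6b, whose products demethylate H3K27, had negative values that did not pass. Kdm6a, an X-linked gene whose product joins the Kmt2c and Kmt2d complexes, stood at 16, 17.2 and 15.9 CPM in HFHC livers, against 19, 18.5 and 23.9 CPM in Chow livers, with the diets apart (-0.32 ± 0.11, edgeR adjusted p = 0.127, and -0.20 ± 0.10 after removal of the trend). Kdm6b, which is induced by inflammatory signals, had 16.5, 16.5 and 10.7 CPM in HFHC livers, against 18.3, 20.6 and 12.5 CPM in Chow livers. HFHC replicate 3 and Chow replicate 9 were low, and the diets overlapped (-0.23 ± 0.21, edgeR adjusted p = 0.566).

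Over the 42 tested members, HFHC and Chow libraries did not overlap for 14. HFHC was lower in 13 of them, a share of 31%, against 14.3% of all tested genes. It was higher in 1, Setd7, against 13.5% of all. The 13 were Kdm2b, Kdm4c, Kdm6a, Kdm7a, Kmt2a, Kmt2c, Kmt5b, Nsd1, Nsd2, Setd1b, Setd2, Setd5 and Setd6. After removal of the trend 11 of the 13 stayed apart, and Kmt5b and Nsd2 overlapped. Kdm4b, Kmt5a and Setd1a were then also apart and lower in HFHC, and Kdm1b was apart and higher. The share of all tested genes without overlap was not counted after removal of the trend, so these counts have no share beside them. The 13 had been picked by their lack of overlap in the same libraries. Transcripts of the 25 methyltransferase and SET domain genes summed to 815.2, 777 and 686.9 CPM in HFHC livers and 881.5, 919.2 and 851.3 CPM in Chow livers, with no overlap. Those of the 18 Kdm genes summed to 443, 435 and 394.3 CPM in HFHC livers and 472.6, 474.1 and 441.5 CPM in Chow livers, with an overlap of HFHC replicate 1 and Chow replicate 9.

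Variation among libraries of 1 diet went with GC content among the members. Over 14866 tested genes the slope per 10 points of GC content differed within a diet too. It was -0.0282 in HFHC replicate 3, against 0.104 and 0.0876 in replicates 1 and 2. In Chow replicate 8 it was 0.00473, against -0.0786 and -0.0898 in replicates 7 and 9. The 9 tested members with over 55% GC were Ehmt2, Kdm4b, Kdm6b, Kmt2b, Kmt2d, Kmt5c, Setd1a, Setd1b and Setd6. All 9 were lower in HFHC replicate 3 than in the mean of the other HFHC livers, with a median log2 deviation of -0.49. In Chow replicate 8 all 9 were higher than in the other Chow livers, with a median of 0.28, and in Chow replicate 9 all 9 were lower, with a median of -0.21. The 10 members with under 45% GC deviated by medians of 0.08 in HFHC replicate 3 and -0.08 in Chow replicate 8. Each deviation is taken against the other libraries of its diet, so the deviations within a diet are tied to each other. Across the 42 members, the deviation of HFHC replicate 3 had Pearson's r of -0.73 and Spearman's rho of -0.70 with GC content. The members' log2 fold change had r of -0.33 and rho of -0.44 with log2 exonic length, against -0.15 and -0.22 over all tested genes. After removal of the trend the members had 0.02 and -0.07. That step takes out the dependence on length over all genes, so this loss is built in and is no separate result. These correlations are across genes that share the 6 libraries and are descriptions.

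**Figure D4:**
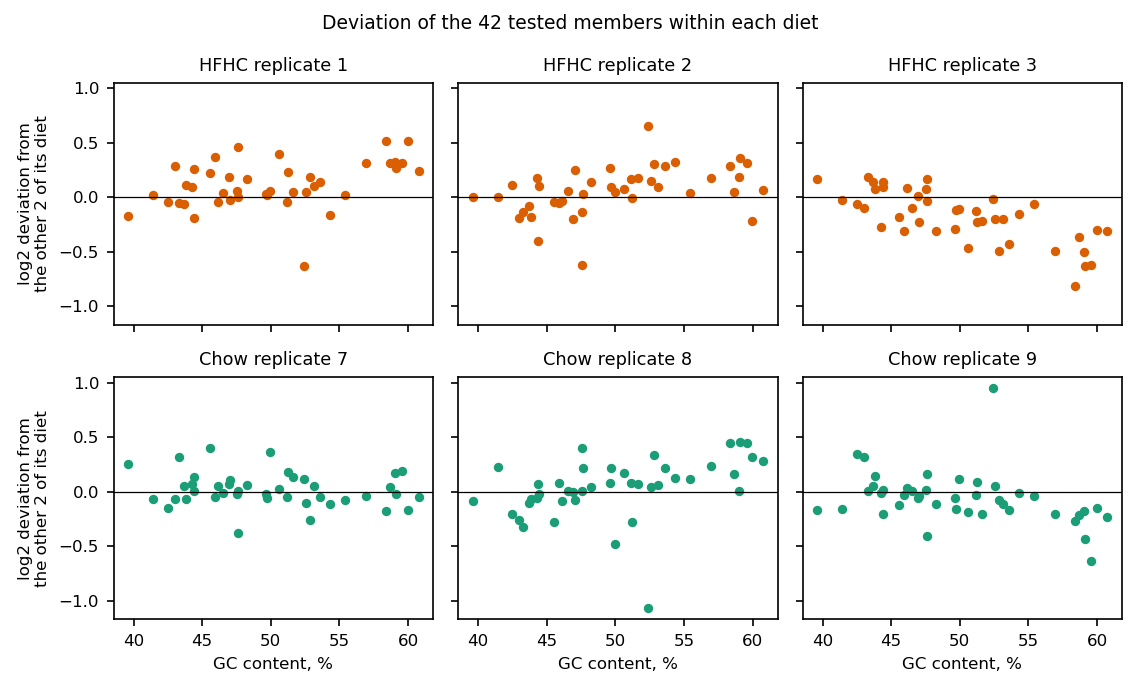
Log2 deviation of each library from the mean of the other libraries of its diet, against GC content in percent, for the 42 tested members (1 point each, HFHC above, Chow below). Points of HFHC replicate 3 descend with GC content (r = -0.73), with a median of -0.49 above 55% GC. Those of Chow replicate 8 (r = 0.42) and of HFHC replicates 1 (0.39) and 2 (0.42) ascend. Those of Chow replicates 7 (-0.18) and 9 (-0.37) descend.

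Partners and related genes of these enzymes were counted in the same fit. Of 82 tested genes in 8 lists of partners, related enzymes, readers and cofactor genes, 5 fell (6.1%, against 3.3% of all tested genes) and none rose, with a median log2 fold change of -0.06. After removal of the trend 4 fell (4.88%, against 2.88% of all). The lists were chosen with earlier results of these data known, so these shares are descriptions. Among methyltransferases outside the symbol rule 1 of 14 fell, Ash1l, another H3K36 methyltransferase, at 41.7 ± 2.89 CPM in HFHC livers and 54.9 ± 0.355 CPM in Chow livers (SD, n = 3 each, -0.40 ± 0.08, edgeR adjusted p = 0.019). Ash1l lost its call when Chow replicate 7 (0.0788) or 9 (0.0696) was left out, and after removal of the trend (-0.23, adjusted p = 0.0615). Of 10 JmjC genes outside the rule 1 fell, Jmjd1c, at 37.5 ± 3.22 CPM in HFHC livers and 55 ± 9.49 CPM in Chow livers (-0.55 ± 0.13, edgeR adjusted p = 0.0353). Of the leave-one-out fits, only that without Chow replicate 8 kept the call of Jmjd1c (0.00408, against 0.0535 to 0.133 in the other 5), and it was lost after removal of the trend (-0.34, 0.134). Ash1l has 14838 and Jmjd1c 17822 exonic bases.

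In the corepressor complex of Kdm1a 1 of 7 tested genes fell, where 3.3% of all tested genes fell. This was the scaffold Rcor1, at 24.4 ± 2.4 CPM in HFHC livers and 32.7 ± 0.607 CPM in Chow livers (-0.42 ± 0.09, edgeR adjusted p = 0.0264). After removal of the trend Rcor1 stood at -0.42 (adjusted p = 0.0126), and its call was lost without HFHC replicate 1 (0.0637), Chow replicate 7 (0.0919) or Chow replicate 9 (0.0976). Of 11 genes that supply or use S-adenosylmethionine or 2-oxoglutarate 2 fell, against the same 3.3% of all tested genes. Nnmt, which spends S-adenosylmethionine on nicotinamide, was at 60.8 ± 17.3 CPM in HFHC livers and 105.2 ± 15.9 CPM in Chow livers (-0.79 ± 0.18, edgeR adjusted p = 0.0351). Idh2, the mitochondrial isocitrate dehydrogenase that makes 2-oxoglutarate, was at 59.9 ± 5.86 CPM in HFHC livers and 81 ± 8.7 CPM in Chow livers (-0.43 ± 0.10, edgeR adjusted p = 0.0394). Both calls held after removal of the trend (adjusted p = 0.0201 for Nnmt and 0.0176 for Idh2). The call of Nnmt was lost without HFHC replicate 1 (0.109), HFHC replicate 2 (0.11), Chow replicate 7 (0.0638) or Chow replicate 9 (0.111). That of Idh2 was lost without HFHC replicate 1 (0.106), HFHC replicate 3 (0.0971), Chow replicate 7 (0.0923) or Chow replicate 9 (0.131).

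No gene passed among 9 PRC2 subunits (median log2 fold change -0.06), 13 COMPASS subunits (-0.06), 11 tested readers of methylated H3K9, H3K27 and H4K20 (-0.11) or 8 arginine methyltransferases (0.11). Of all tested genes 3.3% were called lower and 3.38% higher. The genes with the smallest p in these lists were Jarid2 (-0.33 ± 0.12, edgeR adjusted p = 0.139), Ncoa6 (-0.28 ± 0.11, 0.157), Cbx5 (-0.23 ± 0.08, 0.14, and -0.10 after removal of the trend) and Prmt6 (0.22 ± 0.14, 0.381). Uty, the Y-linked relative of Kdm6a, had -0.37 ± 0.11 and did not pass (0.0859), with -0.11 after removal of the trend (0.573). Phf2, a JmjC demethylase, did not pass as deposited (-0.35 ± 0.11, 0.107) and passed after removal of the trend (-0.41, 0.0223).

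Marker genes of liver cell types were measured in the same libraries. Hepatocyte markers (Alb, Apoa1, Ttr, Hnf4a, Cps1 and Fah) summed to 73084.5 to 75920.2 CPM in HFHC and 64349.6 to 82771.4 CPM in Chow, and 1 of the 6, Cps1, fell (-0.75 ± 0.12, edgeR adjusted p = 0.00837). Of the Kupffer cell markers (Clec4f, Vsig4, Timd4, Cd5l and Adgre1) none of 5 was called. They summed to 210.4 to 258.2 CPM in HFHC and 175.7 to 209.5 CPM in Chow. Log2 fold changes were 0.30 for Clec4f, 0.28 for Cd5l and 0.25 for Adgre1, but -0.14 for Vsig4 and -0.03 for Timd4. Endothelial sums were 160.9 to 176.3 CPM in HFHC and 166.4 to 171.9 CPM in Chow, stellate cell sums 253.8 to 283.4 and 257.8 to 303.1 CPM, and cholangiocyte sums 33.5 to 39.1 and 31.3 to 37.2 CPM. Lymphocyte markers summed to 1.5 to 2.45 CPM in HFHC and 1.31 to 2.31 CPM in Chow, and neutrophil markers to 0.7 to 1.24 and 0.58 to 0.949 CPM. None of the markers in the table was at 0 in every library. The part of the Kupffer cell and proliferation markers, whose sums did not overlap between the diets, in the members' values was not tested.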

How the data were processed

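RNA was measured in 6 livers, 1 library each. Per the labels' protocols, libraries were stranded and depleted of ribosomal RNA. The submitters' processing notes name STAR 2.7.3a, Partek 9 and mm10. The authors deposited expected counts (estimated counts) per gene, not normalized, of which 17.3% were not whole (tolerance 0.05). How they were counted, strand included, is not stated in the sources used.

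Counts were rounded, filtered with filterByExpr (minimum count 10) and tested with edgeR 4.0.16 (TMM factors, quasi-likelihood F test, Benjamini-Hochberg adjustment over 14896 genes). The SE is the log2 fold change divided by the square root of F. P values reflect the spread among these littermates. A single read was worth 0.0318 to 0.0379 CPM, a limit set by counting error only. Exonic length (all exons) and GC content (longest transcript) came from GENCODE M21 for 20061 of 20107 rows, and ends are printed 1 base below the table's. Library trends on both were fitted with mgcv 1.9.3 (k = 8) and used as offsets. Alternatives were other size factors and filters, DESeq2 1.42.0, limma 3.58.1 (voom), the 10 most abundant genes left out and each library left out. The code was tested on simulated data.

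Members and lists were chosen with earlier results of these data known. Values by library were given for called members, the smallest p of each role, members called in at least 2 alternatives, and the 3 highest and 3 lowest levels per length. Others, Uty and Phf2 included, were added after their values were seen. Setd9, Prmt8 and Ly6g of the lists were not analysed here.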

Additional observations from a re-analysis of the deposited data

How the results depend on the processing

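Kmt2c, Nsd1, Setd2 and Kdm7a were called lower under each of 8 alternatives of size factors, filters, tests and composition. With sample weights in limma-voom 790 genes and 7 members were lower. At an adjusted p under 0.01, 1 member was lower, and the number over all genes is not given here. Taking out the length trend alone, tried after seeing the data, left 2 members, Setd2 and Kdm7a, and 3 partner genes. Taking out the GC trend alone gave 6 members, the 4 with Setd1b and Setd5. With either trend alone taken out, fewer genes were called lower over all tested genes than with both trends kept. The members called lower thus fell along with the calls over all genes in the length fit, and rose against them in the GC fit. Over the 12 fits that omitted a library, with the trend kept or removed (the latter added after seeing the data), genes called higher ranged from 207 to 527, genes called lower from 154 to 553, members called lower from 0 to 6, partner genes called lower from 0 to 5 and the members' median log2 fold change from -0.251 to -0.088. The cause was not tested. No member was called higher in any of these fits. No paired analysis was possible because the labels give no pairing of animals between the diets. They do not give the litter of each animal either, so litter was not taken into account.

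The sign of 12 uncalled members, within 0.181 of 0 on the log2 scale as reported, changed with the setting. Upper-quartile factors gave 0.019 for Ezh1 and 0.011 for Nsd3. No count filter gave 0.0055 for Ezh1. Sample weights gave 0.0068 for Ezh1 and 0.0023 for Nsd3. With both trends taken out Kdm1a stood at -0.035, Kdm3b at 0.037, Kdm5d at 0.080 and Nsd3 at 0.144. With the GC trend alone taken out Kdm1a stood at -0.051, Ehmt1 at -0.00037 and Kmt5c at -0.00054. With the length trend alone taken out values were 0.040 for Ezh1, 0.109 for Kdm3b, 0.0042 for Kdm5b, 0.061 for Kdm5d, 0.012 for Kmt2d, 0.163 for Nsd3 and -0.0037 for Suv39h2. Over the 12 fits without a library Ehmt1 ranged over -0.0075 to 0.098, Ehmt2 over -0.207 to 0.0083, Ezh1 over -0.114 to 0.062, Kdm1a over -0.090 to 0.071, Kdm3b over -0.082 to 0.072, Kdm5b over -0.339 to 0.192, Kdm5d over -0.139 to 0.166, Kmt2b over -0.307 to 0.0064, Kmt2d over -0.348 to 0.049, Kmt5c over -0.148 to 0.220, Nsd3 over -0.075 to 0.243 and Suv39h2 over -0.090 to 0.173. With 3 animals per diet, a value such as that of Kdm6b was not resolved from the spread between libraries.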
